A study of Homo sapiens with 8 samples.

Results

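The 663 Cut&Run peaks described here lie on chromosome 15 outside a 1 Mb window around TLE3. They were taken from a list of 15412 peaks of an anti-PML::RARA antibody by chromosome and start position. Rows starting from 70000001 to 71000000 of the hg19 build were left out, and that window was chosen on its own peak count, since it holds 46 of the 709 peaks of the chromosome. Density on the chromosome is therefore given as a description. For comparison, the other autosomes held 14378 peaks and chromosome X held 325.

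The study mapped PML::RARA binding in U937-PR9, a human monocytic cell line that carries a PML::RARA fusion transgene under a zinc-inducible promoter, in addition to its own PML and RARA genes. Cells received 100 μM ZnSO4 (induced) or sterile water (uninduced) for 5 h, and nuclei of 2 replicates of each condition were profiled with each of 2 antibodies, anti-PML::RARA and anti-RARA, which gave 8 libraries. Here the peaks of the induced cells with anti-PML::RARA were used, and no other list, so no value below compares zinc-treated with untreated cells. The peaks themselves were called over a paired control, and the uninduced libraries are titled Control. Each peak has a single value of each measure and none per replicate, and which replicate or replicates the signal came from is not stated. Depth per library is unknown, and the cell type could not be checked against expression markers in a list of this kind.

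PML::RARA is the fusion protein of acute promyelocytic leukemia, made by a translocation between chromosomes 15 and 17. It keeps the DNA-binding domain of the retinoic acid receptor alpha and recruits corepressors. In Cut&Run, a nuclease tethered to an antibody cuts DNA next to the bound protein, and the released fragments are sequenced. Chromosome 15 carries PML itself, the imprinted Prader-Willi and Angelman region near its centromere, and several genes of myeloid cells and of growth signalling on its distal arm.

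Each peak has a height, which is the largest signal within it, a width in bp and an apex, the midpoint of the interval of largest signal. A peak is called labelled where the authors gave it the symbol of a gene because its apex overlapped that gene's promoter. The sequences below are 160 bases about the apex of the 3 highest peaks of each of 3 classes, labelled, intronic and outside canonical coding transcripts, among peaks whose windows avoid annotated UTRs. They are shown because each is among the highest of its class. They were read from the plus strand of hg19. Capitals mark a match, on either strand, to 1 of 8 short motifs: GGAAGT (the ETS core), AGGTCA (a nuclear receptor half-site), TGTGGT (RUNX), TGACTCA (AP-1), TTGCGCAA (C/EBP), GGGCGG (the GC box), CACGTG (the E-box) and CACCC (a KLF element). Some of these motifs can share letters, as in CACCCCGCCC.
PPCDC intron 2, unlabelled, height 83, chr15:75335395-75335554: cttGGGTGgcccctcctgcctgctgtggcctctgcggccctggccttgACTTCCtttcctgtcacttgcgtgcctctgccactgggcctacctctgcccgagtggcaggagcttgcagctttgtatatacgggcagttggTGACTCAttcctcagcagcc
ARID3B intron 2, unlabelled, height 75, chr15:74838520-74838679: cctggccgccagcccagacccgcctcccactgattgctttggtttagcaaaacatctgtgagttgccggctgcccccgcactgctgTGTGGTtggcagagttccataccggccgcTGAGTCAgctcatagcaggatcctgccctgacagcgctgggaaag
SCAMP2 intron 1, unlabelled, height 58, chr15:75162420-75162579: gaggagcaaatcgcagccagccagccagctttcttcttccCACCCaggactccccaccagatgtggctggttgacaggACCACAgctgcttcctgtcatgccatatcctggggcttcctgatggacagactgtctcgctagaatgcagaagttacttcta
Beyond the canonical PPCDC transcript, unlabelled, height 61, chr15:75400957-75401116: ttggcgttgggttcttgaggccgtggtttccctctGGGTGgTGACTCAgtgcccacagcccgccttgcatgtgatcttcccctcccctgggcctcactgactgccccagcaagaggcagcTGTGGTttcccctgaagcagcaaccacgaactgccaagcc
Outside coding genes near CHSY1, unlabelled, height 55, chr15:101708501-101708660: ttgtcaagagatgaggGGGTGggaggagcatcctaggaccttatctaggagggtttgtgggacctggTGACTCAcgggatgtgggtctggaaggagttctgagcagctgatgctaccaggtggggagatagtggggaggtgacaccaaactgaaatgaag
Downstream of DAPK2, unlabelled, height 55, chr15:64185220-64185379: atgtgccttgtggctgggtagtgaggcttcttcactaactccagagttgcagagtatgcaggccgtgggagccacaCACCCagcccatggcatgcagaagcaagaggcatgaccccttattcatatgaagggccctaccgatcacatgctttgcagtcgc
ABHD2, labelled, height 71, chr15:89631276-89631435: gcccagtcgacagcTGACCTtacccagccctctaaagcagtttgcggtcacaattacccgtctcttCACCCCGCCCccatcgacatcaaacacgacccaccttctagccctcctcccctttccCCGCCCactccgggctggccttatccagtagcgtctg
CSK intron 1, labelled MIR4513, height 63, chr15:75079931-75080090: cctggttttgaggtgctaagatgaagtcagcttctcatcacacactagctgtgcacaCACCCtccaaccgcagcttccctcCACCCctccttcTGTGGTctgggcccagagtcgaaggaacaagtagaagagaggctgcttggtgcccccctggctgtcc
USP3, labelled, height 62, chr15:63795474-63795633: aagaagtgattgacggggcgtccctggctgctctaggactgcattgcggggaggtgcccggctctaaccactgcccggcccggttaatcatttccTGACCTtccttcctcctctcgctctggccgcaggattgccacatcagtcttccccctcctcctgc

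Of the 6 unlabelled windows, 4 hold 1 match to TGACTCA, and those of SCAMP2 intron 1 and downstream of DAPK2 hold none. None of the 3 labelled windows holds one. In the ABHD2 window, 2 matches to GGGCGG and 1 to AGGTCA lie upstream of the gene. A match describes letters in this window and is not evidence of a bound site.

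Peaks were dense on chromosome 15 even with the TLE3 window left out. The 663 peaks lay on 80.7 sequenced Mb, which is 8.22 peaks per Mb with an exact 95% Poisson interval of 7.60 to 8.87. The other autosomes pooled held 5.52 peaks per Mb (5.43 to 5.61), with chromosome 4 lowest at 2.21 and chromosome 19 highest at 18.3. Chromosome 15 was the fifth densest of 22, after chromosomes 19, 17 (13.6), 22 (9.69) and 16 (9.10). Its interval overlapped those of chromosomes 22, 16, 20 (8.0 per Mb) and 21 (6.81), and the differences in density between these neighbours in the order were not tested. The ratio to the other autosomes was 1.49. With the window put back, the density was 8.68 per Mb, and the window alone held 46 peaks in 1 Mb at a median height of 35. The paper describes the karyotype of U937-PR9 cells as complicated. No value here is adjusted for DNA copy number, and its part in the differences between chromosomes was not tested.

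Chromosome 15 stood higher in peak density than in gene density. It ranked ninth in protein-coding genes, with 606 of them at 7.51 per Mb. Across the 22 autosomes, coding genes per Mb and peaks per Mb had a Spearman rho of 0.954, given as a description. Against the 3 autosomes nearest in gene density, chromosomes 9, 12 and 14, which held 5.21 peaks per Mb, the ratio was 1.58. Counted per coding gene, chromosome 15 ranked first of 22 with 1.09 peaks per gene, against 0.772 for the other autosomes pooled, 1.04 for chromosome 21 and 0.545 for chromosome 4.

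**Figure D1:**
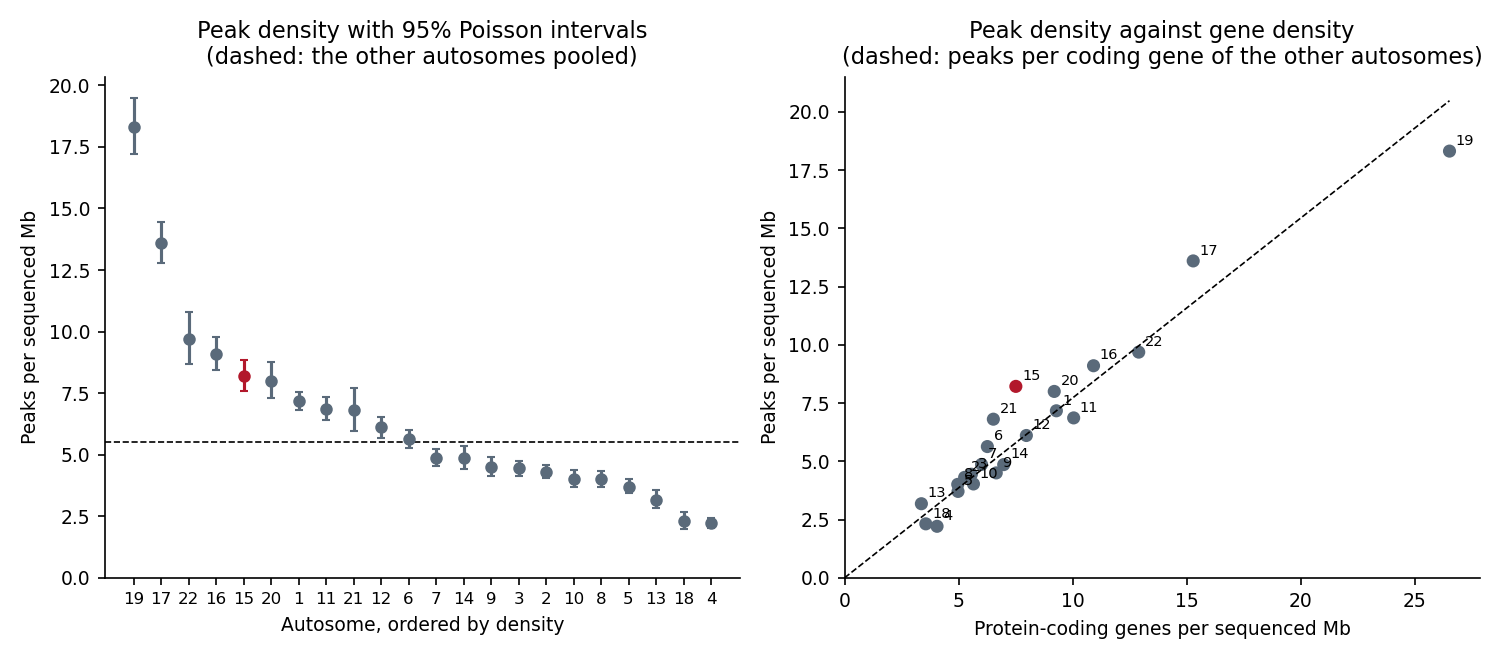
Left, peaks per sequenced Mb of each autosome with exact 95% Poisson intervals, chromosome 15 in red and the other autosomes pooled as a dashed line at 5.52. Right, the same densities against protein-coding genes per Mb, with a dashed line at 0.772 peaks per coding gene. Chromosome 15 lies above that line at 8.22 peaks and 7.51 genes per Mb.

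Both classes of peak shared in the higher density, the unlabelled ones more. Labelled peaks numbered 3.57 per Mb on chromosome 15 and 2.58 on the other autosomes, a ratio of 1.38. Unlabelled peaks numbered 4.65 and 2.95 per Mb, a ratio of 1.58, which reached 1.79 against the 3 autosomes nearest in gene density. Of the 663 peaks, 288 were labelled, a share of 43.4% (Wilson 95% interval 39.7 to 47.2%). This was 3.23 percentage points below the 46.7% of the other autosomes pooled. The interval of that difference ran from -7.09 to 0.631 points, so a difference from the pooled autosomes was not resolved by counting. The 3 autosomes nearest in gene density had 50.1% (47.8 to 52.4%), an interval that does not overlap that of chromosome 15. The difference from them was -6.65 points. Chromosome 15 ranked seventeenth, between extremes of 36.4% on chromosome 21 and 54.8% on chromosome 19. Chromosome 21 (30.6 to 42.7%) is the next nearest in gene density and is not among the 3, so that comparison depends on where the set stops.

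Counted over genes, the order was different. A labelled peak was assigned to 241 of the 606 coding genes of chromosome 15, or 39.8% (35.9 to 43.7%). On the other autosomes, 5696 of 18622 coding genes, or 30.6% (29.9 to 31.3%), had one. Chromosome 15 was first of the 22 autosomes, ahead of chromosomes 17 (35.2%), 16 (34.5%) and 6 (34.3%), with chromosome 4 last at 23.1%. Its interval begins just above the value of chromosome 17. By distance, 50.7% of its coding genes had an apex within 1 kb of an annotated start site, against 39.8% on the other autosomes.

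The labels covered 262 genes, of which 239 had 1 labelled peak, 20 had 2 and 3 had 3. Besides the 241 coding genes, 12 were lncRNA genes, 4 were miRNA genes and 5 were of other or unmatched types. Of the 288 labelled peaks, 244 carried the symbol of the nearest coding gene and 265 had an apex within 1 kb of a coding start. Over all 288, the median distance was 81 bp. The remaining labels were not sorted by kind. Some labels name a neighbour, as PATL2 does at the start of B2M, so a gene without its own label can still have a peak at its 5′ end.

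**Figure D2:**
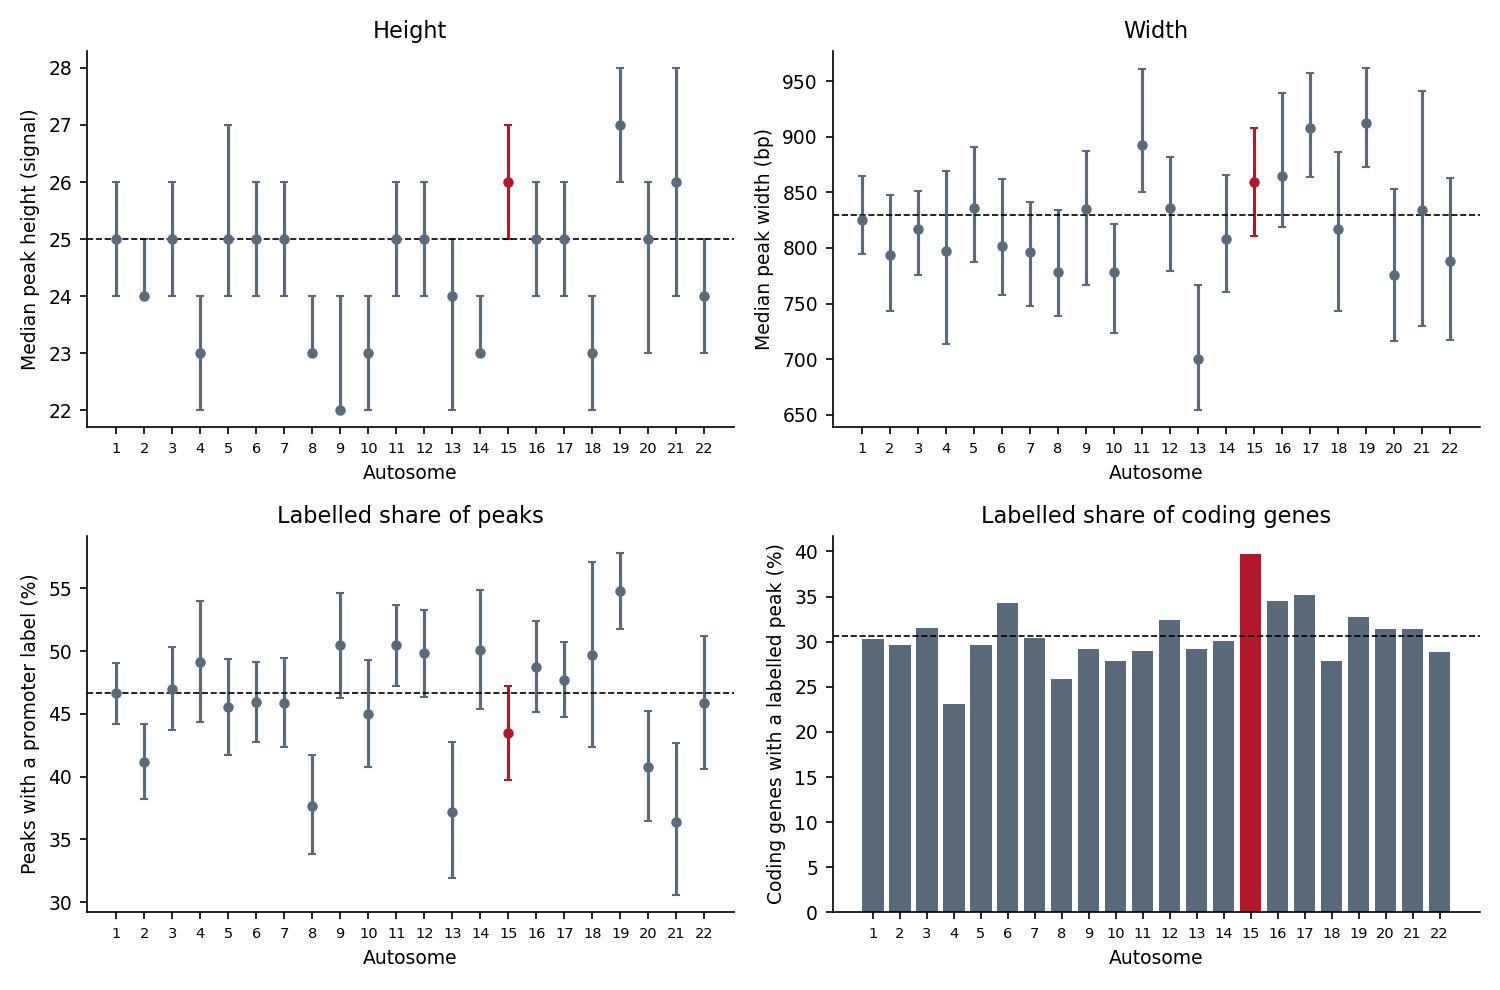
Median peak height, median peak width and labelled share of peaks for each autosome, with 95% intervals over peaks, and the share of coding genes with a labelled peak as bars from 0. Chromosome 15 is red and the other autosomes pooled are the dashed line. The red bar at 39.8% is the tallest of the 22, whereas its height, width and labelled share of peaks lie within the range of the other chromosomes.

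Peak height on chromosome 15 differed little from the rest of the genome. The median was 26 (95% interval over peaks 25 to 27), the quartiles were 20 and 34, and the range was 15 to 83. Only chromosome 19, with 27, had a higher median, and chromosome 21 also had 26. The mean log2 height was 4.74 against 4.69 on the other autosomes, a difference of 0.04 (0.005 to 0.084), or 1.03-fold. These intervals treat peaks as independent, which neighbouring peaks are not.

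The small difference in height lay mainly in the unlabelled peaks. Their mean log2 height was 4.71 against 4.64 on the other autosomes, which placed chromosome 15 first of 22, next to chromosome 21. Labelled peaks had a mean log2 height of 4.78 against 4.75 and ranked eighth. A height of 40 or more was reached by 112 peaks, or 16.9%, against 13.5% of the peaks on the other autosomes. A height of 50 was reached by 36 peaks (5.43%), against 4.56%. Of the 500 highest autosomal peaks outside the TLE3 window, 23 (4.60%) were on chromosome 15, which holds 4.41% of all autosomal peaks outside that window.

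Widths were also close to those elsewhere. The median was 859 bp (811 to 908), with quartiles of 544.5 and 1261 bp and a range of 98 to 6203 bp. The other autosomes had a median of 829.5 bp, and the difference in mean log2 width was 0.01 (-0.058 to 0.082). Labelled peaks were wider than unlabelled peaks, with medians of 1189.5 and 664 bp, a difference of 0.74 in mean log2 width that was also 0.74 on the other autosomes. In height the labelled peaks exceeded the unlabelled ones by 0.07 on the log2 scale, against 0.12 elsewhere. A width of 2500 bp or more was seen in 16 peaks, or 2.41%, against 2.97%. Over the 663 peaks, height and width had a Spearman rho of 0.451, given as a description since both come from the same reads.

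**Figure D3:**
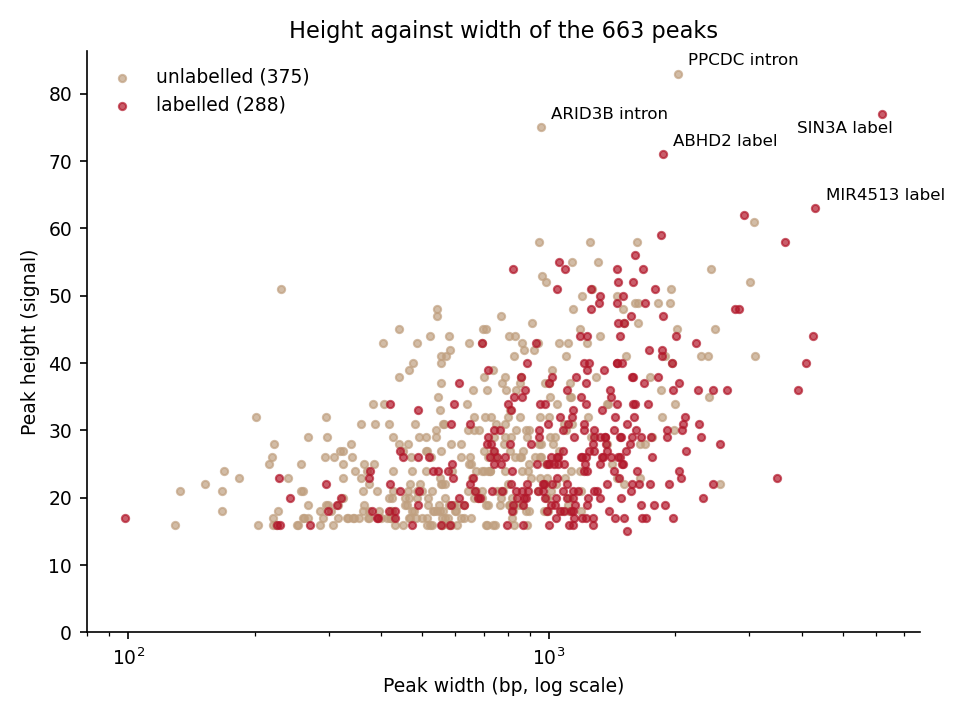
Height (signal) against width (bp, log scale) of the 663 peaks, 288 labelled in red and 375 unlabelled in tan. The SIN3A peak stands alone at 6203 bp, and the highest peak, in PPCDC intron 2, is unlabelled.

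Unlabelled peaks lay in introns of canonical coding transcripts and outside such transcripts in similar numbers. Of the 375, 171 had an apex inside an intron of a canonical coding transcript, 64 of these in intron 1, 186 lay outside canonical coding transcripts and 18 in exons. Taking all transcripts, unlabelled intronic peaks made up 28.5% of the 663 peaks, against 24.6% on the other autosomes, and only 2 autosomes had a larger share. Unlabelled peaks outside coding genes then made up 23.7%, against 24.8%. The median distance from an unlabelled apex to the nearest coding start was 9042 bp, against 11548 bp elsewhere, and 58 of the 375 (15.5%) were over 50 kb away, against 18.6%. Another 38 unlabelled peaks had an apex within 1 kb of a coding start, among them the peaks at the start of KNL1, a kinetochore scaffold gene, and of RAB11A, a recycling endosome GTPase gene.

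Along the chromosome, peaks were few before 40 Mb and frequent after it. The 19.3 sequenced Mb before 40 Mb held 31 peaks, 1.61 per Mb (1.09 to 2.28), and 95 coding genes. In the 61.4 Mb after it, 632 peaks gave 10.3 per Mb (9.50 to 11.1) over 511 coding genes. The contrast held per gene, at 0.326 and 1.24 peaks per coding gene. Labelled peaks marked 11 of the 95 proximal coding genes (11.6%) and 230 of the 511 distal ones (45.0%). The labelled share of peaks was 41.9% (26.4 to 59.2%) before and 43.5% (39.7 to 47.4%) after the 40 Mb position, which was chosen after the counts were seen.

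Repeated sequence moved with part of this pattern. In the genome sequence, 8.01% of all 50-base words of chromosome 15 recur elsewhere on the chromosome, on either strand. The share was 40.5% in the 5 Mb window from 20 Mb, 11% in the next and 24.1% in the one after, but 2.49% in the window from 35 to 40 Mb, which still held only 6 peaks. The window from 80 to 85 Mb had 17.3% and held 36 peaks. Only 10 of the 663 peaks contained any recurring word. The median share was 3.27% in the empty 1 Mb windows and 3.03% in the others. Of the 15 empty 1 Mb windows, 6 had over 5% recurring words, as did 17 of the 67 windows with peaks. The part of repeats in the low counts was not tested.

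**Figure D4:**
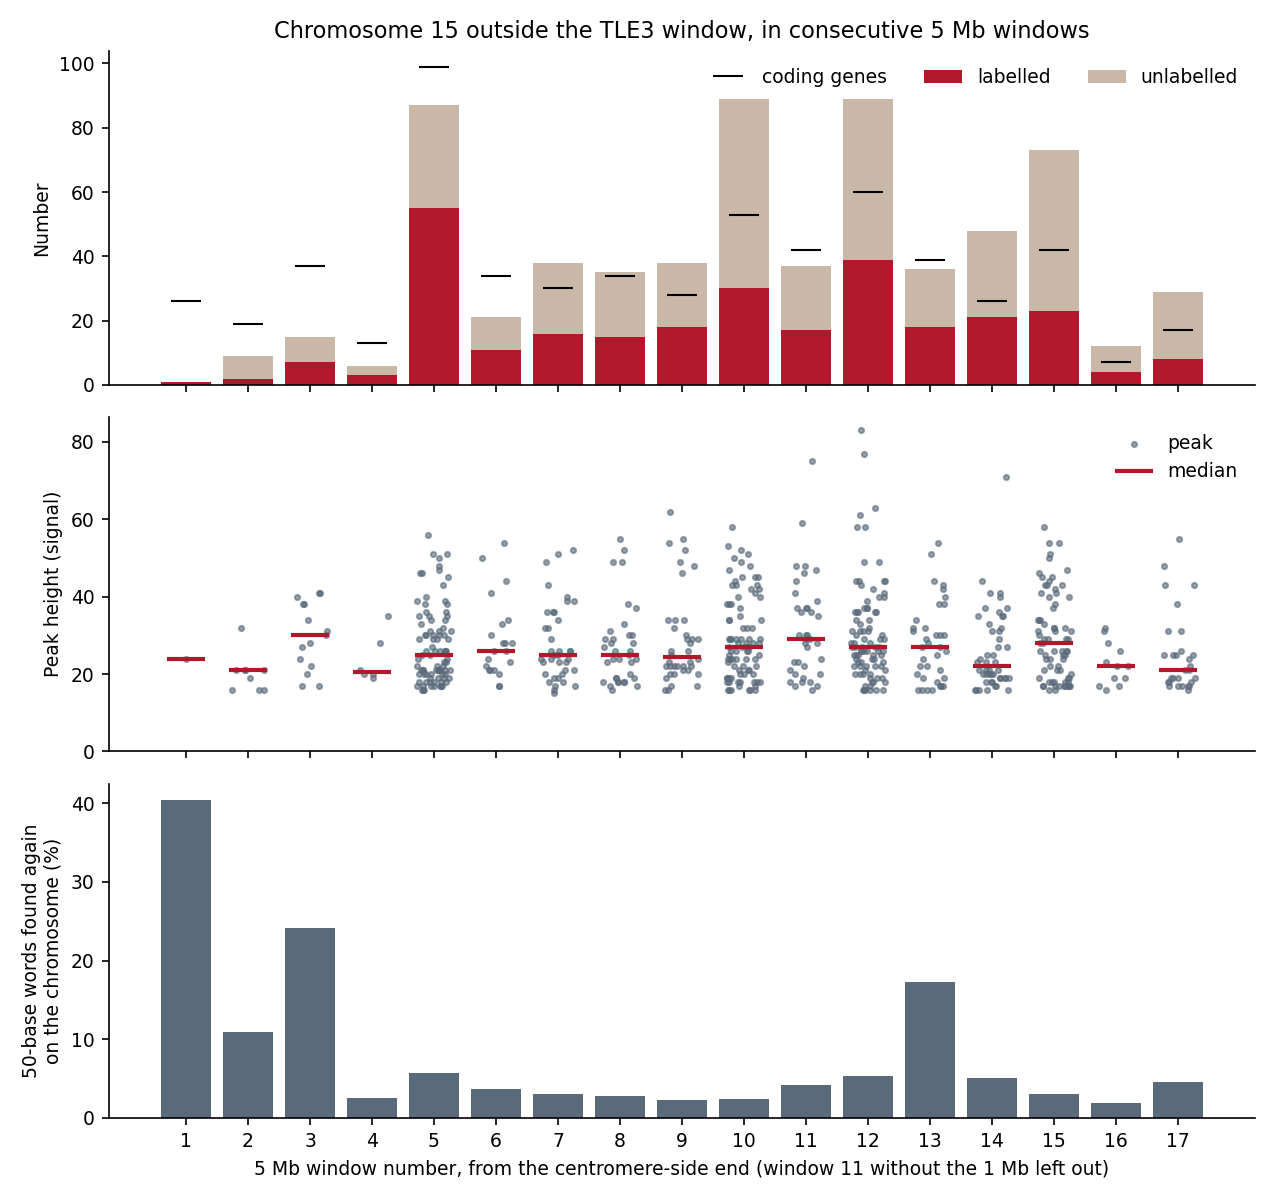
Consecutive 5 Mb windows of chromosome 15, numbered 1 to 17 from the centromere-side end, window 11 without the left-out 1 Mb in the upper and middle panels. Upper, labelled and unlabelled peaks stacked, with coding genes as black dashes. Middle, height of each peak (jittered sideways) and the median. Lower, share of 50-base words found again on the chromosome. Windows 1 to 4 hold 1, 9, 15 and 6 peaks, and windows 5, 10 and 12 hold 87, 89 and 89.

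Among the 5 Mb windows, the fewest peaks lay from 20 to 25 Mb, where the single peak had a height of 24 and was labelled NIPA2, a magnesium transporter gene. The 5 windows with the most peaks held 386 of the 663. From 65 to 70 Mb there were 89 peaks over 53 coding genes, with SMAD6 (height 58) the highest. From 75 to 80 Mb there were again 89 peaks over 60 genes, led by the PPCDC intron peak (83). The window from 40 to 45 Mb held 87 peaks over 99 genes, led by MAPKBP1 (56). From 90 to 95 Mb there were 73 peaks over 42 genes, led by the ZNF710 intron peak (58), and from 85 to 90 Mb there were 48 over 26, led by ABHD2 (71).

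These windows differed in their labelled share. It was 63.2% (52.7 to 72.6%) from 40 to 45 Mb, 33.7% (24.7 to 44%) from 65 to 70 Mb and 31.5% (22 to 42.9%) from 90 to 95 Mb, so the first interval lies above the other two. Across the 17 windows, coding genes and peaks had a rho of 0.738, and coding genes and mean log2 height had 0.782. Over 82 windows of 1 Mb, the former was 0.681. The latter was lower, 0.427, over the 67 windows of 1 Mb with peaks. Windows of 1 Mb were empty in 18.3% of cases on chromosome 15 and in 31.5% of 2611 cases on the other autosomes, and the median window held 5.5 and 2 peaks. Windows with 20 or more peaks made up 8.54% and 7.16%.

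The densest 1 Mb, from 75 to 76 Mb, held 37 peaks, of which 17 were labelled and 15 had a height of 40 or more, and the median height was 36. CSK, the kinase that restrains SRC family kinases, had labelled peaks of heights 44 and 27, and another peak in its intron 1 carried the label of the microRNA gene MIR4513 with a height of 63. SCAMP2, a secretory carrier gene, had a promoter peak of 37 and intronic peaks of 44 and 58. The mitochondrial gene COX5A and the ribosomal RNA processing gene IMP3 each had a peak of 44. PPCDC, an enzyme of coenzyme A synthesis, had a promoter peak of 25 and 5 intronic peaks of 49, 21, 16, 83 and 49. SIN3A, the scaffold of a histone deacetylase corepressor complex, had 77.

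From 40 to 41 Mb, 31 peaks had heights of 16 to 46, with SRP14 at 19 and BUB1B, a spindle checkpoint kinase gene, at 26. The highest there, 46, was an unlabelled peak in CCDC9B exon 11. PLCB2, a phospholipase of myeloid cells, had labelled peaks of 30 and 36. The stretch from 91 to 92 Mb held 28 peaks, with BLM, a RecQ helicase gene, at 50, HDDC3 at 51 and 32, and FES, a myeloid tyrosine kinase gene, at 29. Around the SMAD genes from 66 to 68 Mb, which encode mediators of TGF-beta signalling, unlabelled peaks outnumbered labelled ones. SMAD6 had 1 labelled peak of 58 and unlabelled intronic peaks of 19, 34 and 18, and SMAD3 had 1 labelled peak of 29 and unlabelled intronic peaks from 20 to 43.

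No peak lay between the first sequenced base, 20000001, and the first peak at 23033925. Between neighbouring peaks, peak-free stretches were up to 2919372 bp long, the longest running from 26327960 to 29247332 across 12 coding genes with GABA receptor subunits and HERC2 among them. The next ran from SQOR to DUT (2695401 bp). The stretch between NIPA2 and UBE3A (2648503 bp) spans 12 coding genes, including the imprinted genes MAGEL2, NDN and SNRPN.

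Of the labelled peaks, SIN3A had the largest total signal in the whole list. The SIN3A peak (ENSG00000169375, chr15:75742594-75748796) spanned 6203 bp, reached a height of 77 and summed to a total signal of 139582. The nearest start site of the gene is 52 bp from the apex. By height it ranked ninth and by width seventh of the 15412 peaks. ABHD2, a lipid hydrolase gene (chr15:89630721-89632586), followed with a height of 71 at 1866 bp. The MIR4513 peak (chr15:75079003-75083307) had 63 at 4305 bp, USP3, a histone deubiquitinase gene (chr15:63795146-63798065), had 62 at 2920 bp, and ARID3B, an AT-rich DNA-binding factor gene (chr15:74832634-74834484), had 59 at 1851 bp. SMAD6, an inhibitory SMAD gene (chr15:66992755-66996392), had 58 at 3638 bp, MAPKBP1 (chr15:42065941-42067540) had 56 at 1600 bp, and RSL24D1, a ribosome biogenesis gene (chr15:55488594-55489648), had 55 at 1055 bp.

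The widest labelled peaks were not all high. After SIN3A and MIR4513 came CSK (chr15:75072916-75077154) with 4239 bp and a height of 44, KLF13, a Kruppel-like factor gene (chr15:31617399-31621479), with 4081 bp and 40, and C15orf39 (chr15:75492259-75496178) with 3920 bp and 36. The CSK, MIR4513, C15orf39 and SIN3A peaks all lie between 75 and 76 Mb.

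The highest peak of the chromosome had no label. It lay in intron 2 of PPCDC (chr15:75334999-75337026), 141 bp upstream of an internal start site of the gene, with a height of 83, the fourth in the list and the second of all unlabelled peaks. The next, in ARID3B intron 2 (chr15:74838127-74839082), had 75 and ranked eleventh in the list, above the ARID3B promoter peak of 59. A peak beyond the canonical transcript of PPCDC, but within the annotated span of the gene (chr15:75400700-75403779), had 61 at 3080 bp. Heights of 58 were seen in intron 1 of SCAMP2 (chr15:75162089-75163709), of PSTPIP1, a cytoskeletal adaptor gene of blood cells (chr15:77294842-77295787), and of the zinc finger gene ZNF710 (chr15:90602221-90603472). Outside coding genes, a height of 55 was reached 19494 bp from a start site of CHSY1 (chr15:101707841-101709150) and 18842 bp from one of DAPK2 (chr15:64184723-64185855). Before 40 Mb, where peaks were sparse, heights did not exceed 41. That height was reached by a peak outside coding genes (chr15:31506738-31509132) and by one beyond the canonical transcript of KLF13 but overlapping its annotated span (chr15:31726543-31728072). Before 30 Mb the highest, in ATP10A intron 1 (chr15:26038406-26039135), had 32.

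Labelled peaks were most numerous in BMF, PSTPIP1 and MCTP2, with 3 each. BMF, a BH3-only gene that promotes apoptosis, had heights of 26, 30 and 35. PSTPIP1 had 25, 31 and 17, all below its unlabelled intron 1 peak of 58. MCTP2, a calcium-binding membrane protein gene, had 26, 42 and 18. Their apexes lay from 22 to 1750 bp from the nearest coding start.

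Several coding genes were covered by many peaks, and most of the peaks over the genes named below were unlabelled. Of the 606, 352 had at least 1 peak over the gene and 13 had 5 or more, labelled or not. The same counts are not given for the other autosomes, so they do not set chromosome 15 apart. TBC1D2B, a RAB GTPase-activating gene, had 9 with heights of 16 to 28. PPCDC and SMAD3 had 8 each. DAPK2, a calcium-dependent death kinase gene, had 6 of heights 16 to 48, none with a label, and RAB27A, a gene of granule secretion, had 6 of 17 to 30. ATP8B4, CHSY1, AKAP13 and PSTPIP1 also had 6 each.

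Listed genes were grouped by role. Against the 39.8% of all coding genes on the chromosome, 71 of the 138 listed genes (51.4%) had a labelled peak. Against 50.7% of all coding genes on the chromosome, 86 of the 138 had an apex within 1 kb of a start site. The lists hold well-known genes and were made with earlier results of these data known, so their counts are a description. In all, 5 genes stand in 2 lists each. The median height over listed genes with a label was 26, the same as over all 663 peaks.

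Genes of chromatin and genome maintenance were labelled in 13 of 17 cases, with a median height of 31 and a range of 20 to 77. After SIN3A and ARID3B came CHD2, a chromatin remodeller gene (54), BLM (50), PARP6 (44) and POLG, the mitochondrial DNA polymerase gene (40). MGA, a MAX partner gene, was lowest at 20. PML, the nuclear body gene and fusion partner, had a labelled peak of 24 (chr15:74290316-74290860), and the peak of 39 at its 5′ end carried the label of the neighbour STOML1. The list does not say whether reads came from the cell's own PML or from the transgene, and the 2 cannot be told apart. FAN1 was the only listed gene of this group with no peak over it.

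Transcription factors and SMADs were labelled in 9 of 22 cases, with a median of 23 and a range of 17 to 58. SMAD6 (58), KLF13 (40), ISL2 (31) and SMAD3 (29) were highest, and MEF2A, a myogenic and immune factor gene, had a peak of 17 that was 1974 bp wide. RORA, RFX7, ARNT2 and ONECUT1 were among 11 without any peak over the gene. TCF12 and GABPB1 had peaks of 27 and 29 labelled with noncoding partners.

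Kinases and growth signalling genes were labelled in 13 of 19 cases, with a median of 26 and a range of 16 to 44. CSK (44), USP8, an endosomal deubiquitinase gene (39), PLCB2 (36) and AKAP13 (33) led, and MAP2K1, the MEK1 gene, and FES had 29. MAP2K5 was lowest at 16 for its label, although a peak of 51 lay elsewhere over the gene. SPRED1 and RASGRP1 had no peak.

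Myeloid and immune genes were labelled in 13 of 23 cases, with a median of 29 and a range of 16 to 49. SPPL2A, an intramembrane protease gene, had 49, ADAM10, a sheddase gene, had 38, ISG20, an interferon-stimulated exonuclease gene, had 35 and IL16 had 32. IDH2, a mitochondrial dehydrogenase gene mutated in myeloid leukemia, had a peak of 19 that was 1888 bp wide, and BCL2A1, an antiapoptotic gene, had 16. B2M, the light chain of HLA class I, had no label of its own but a peak of 33 at its start labelled PATL2. CTSH had an unlabelled peak of 37 at its start, and FURIN had unlabelled peaks up to 43. ANPEP, which encodes CD13, THBS1, RASGRP1 and MFGE8 had no peak over them.

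Retinoid genes had no labelled peak in 5 cases. STRA6, CRABP1, ALDH1A3 and RLBP1 had no peak over the gene. ALDH1A2, a retinoic acid synthesis gene, had an unlabelled peak of 49 with its apex 716 bp upstream of an annotated start, and 5 peaks over an annotated span of 544.4 kb that includes other genes.

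Cell division genes were labelled in 9 of 12 cases, with a median of 26 and a range of 16 to 51. OIP5 had 51 at a start it shares with NUSAP1, TICRR had 34, PRC1 29, and BUB1B, KIF23 and CCNB2 had 26 each, with KNSTRN lowest at 16. Genes of ribosome, translation and mitochondria were labelled in 14 of 19 cases, with a median of 24.5 and a range of 16 to 55. RSL24D1 (55), the glycolytic gene PKM (48 and 37), COX5A (44) and SNUPN (40) were high, and MTFMT was lowest at 16.

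Genes of the Prader-Willi and Angelman region and of neurons were seldom labelled. On the list of that region 2 of 13 were, the ubiquitin ligase gene UBE3A with 16 and NIPA2 with 24, and 10 had no peak over them, SNRPN among these. Of 13 neuronal receptor and channel genes, CHRNA5, a nicotinic receptor subunit gene, was labelled with 20, and 10 had no peak over them.

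**Figure D5:**
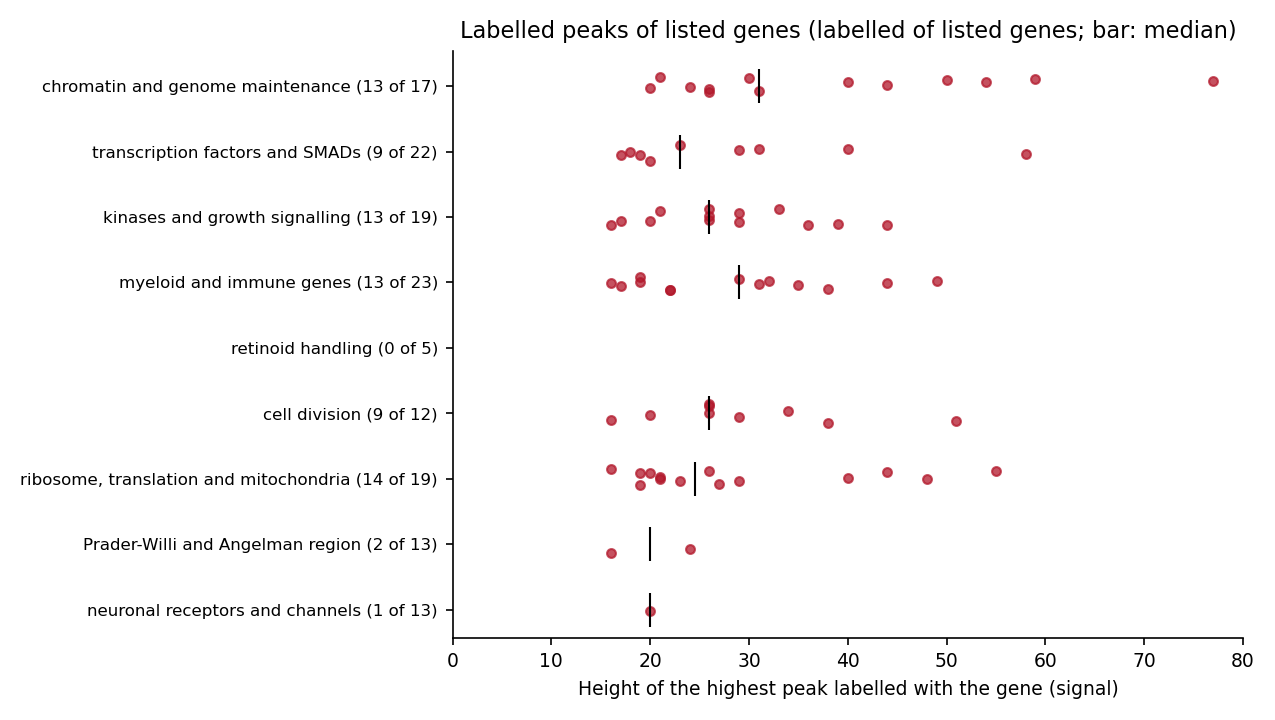
Height of the highest labelled peak of each listed gene, by list, with the median as a bar. The numbers of labelled and listed genes stand beside each name. Chromatin genes range from 20 to 77, and no retinoid gene is plotted.

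Motifs were counted within 200 bp of the apex on both strands, and in windows of the same length 2 kb upstream. TGACTCA occurred in 16.6% of the 663 windows (14 to 19.6%), against 6.49% upstream and 14.3% on the other autosomes. It occurred in 24.3% of unlabelled and 6.6% of labelled windows, and in 21.9% and 5.69% elsewhere. GGAAGT occurred in 42.5% (38.8 to 46.3%), against 22.3% upstream and 42.4% elsewhere. TGTGGT occurred in 29.7%, against 27.3% upstream, and again more in unlabelled (42.7%) than in labelled windows (12.8%). It was above its upstream share of 28.5% in the former and below that of 25.7% in the latter. AGGTCA, the half-site that retinoic acid receptors recognise, occurred in 24.0%, against 29.3% upstream and 23.2% elsewhere. In labelled windows the share was 19.1% against 35.4% upstream, whereas in unlabelled ones it was 27.7% against 24.5%. Within 100 bases of the apex it was 16.1% against 15.7% upstream. CACCC occurred in 78.7%, against 58.5% upstream and 77.2% elsewhere, and TTGCGCAA in 0.302%, against 0.151% and 0.376%.

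GGGCGG and CACGTG were less frequent on chromosome 15 than on the other autosomes. GGGCGG occurred in 41.8% (38.1 to 45.6%), against 49% elsewhere, and chromosome 15 ranked nineteenth of 22 within a range of 40.5% to 61.3%. Labelled windows held it in 73.3% and unlabelled ones in 17.6%, against 76.3% and 25.1% elsewhere. The interval in labelled windows, 67.9 to 78.0%, includes the share elsewhere, and that in unlabelled ones, 14.1 to 21.8%, does not. CACGTG occurred in 7.09% (5.37 to 9.30%), against 11% (10.5 to 11.5%) elsewhere, the lowest of the 22, where the others ranged from 8.22% on chromosome 13 to 15.1% on chromosome 21. It was lower in unlabelled windows, at 5.60% (3.69 to 8.41%) against 9.47%. In labelled windows it was 9.03% against 12.7%, with an interval of 6.24 to 12.9% that includes the share elsewhere. In the upstream windows it was 4.52%, against 5.39% on the other autosomes. The median GC content was 57.1%, against 58.1% elsewhere and 46.4% upstream of the same peaks. The median number of CpG dinucleotides was 10, against 14 elsewhere, but 33 in the labelled windows of both. The part of base composition in the motif shares was not tested.

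At the borders of the left-out window, the last peaks before it lay at chr15:69902604-69903151 (height 19) and chr15:69958900-69961989 (height 41, 3090 bp wide). The first inside lay at chr15:70010939-70012216 (46) and chr15:70013708-70014125 (44), and the last inside at chr15:70888692-70889091 (25) and chr15:70919756-70921266 (50). After it came the UACA peak, chr15:71054852-71056077 (17), and chr15:71119032-71119293 (17).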

How the data were processed

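Single-end Cut&Run reads were trimmed by the authors (Trimmomatic) and mapped to hg19 (Bowtie2). PCR duplicates (SAMtools) and reads in blacklisted regions (Bedtools) were discarded. SEACR in its norm union setting called peaks over the paired control, and the list keeps those that recurred in both replicates (IDR below 0.05). Tool versions are not given in the sources used here. The authors deposited for each peak a total signal and a score, the largest signal within it (peak height). Their column names differ, and content was read from the values. Whether the signal was normalised, whether it is of 1 replicate or pooled, and whether starts count from 0 or 1, is not stated.

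Density used sequenced (non-N) length of GRCh37, and positions relative to genes used GENCODE release 44 mapped to GRCh37. Intervals are 95%: exact Poisson for counts, Wilson for shares, order statistics for medians, and a normal approximation over peaks for differences. They cover counting of peaks only, and neighbouring peaks are not independent. No statistical test was run, since replicates have no values of their own. The Poisson, Wilson and median intervals were tested on simulated data. Depth is unknown, and 34 peaks of the list, none of them on chromosome 15 outside the window, lack an end of the apex interval.

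Members, lists and comparisons were chosen with earlier results of these data known. Named peaks were the 8 highest labelled and unlabelled peaks, the 5 widest labelled peaks, the highest of each 10 Mb, genes with 3 labelled peaks, the 5 Mb windows with the most and the fewest peaks, the peaks at the window borders, and listed genes. A few listed genes are not reported here by name. Genes named within the dense stretches and for many peaks, the 40 Mb split, the 50-base word count and the motif shares by autosome were chosen after the values were seen. Alternatives were whole chromosome length, merging peaks under 1 kb apart, the window put back, height or width at or above the median, labelled or unlabelled peaks only, other promoter definitions, the widest 1% left out, total signal, the 3 nearest autosomes, and other motif windows. Analyses used Python 3.11.15 with numpy 2.4.6, pandas 2.3.3, scipy 1.17.1, pysam 0.24.0 and matplotlib 3.10.9.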

Additional observations from a re-analysis of the deposited data

How the results depend on the processing

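Of 49 alternative values of the main results, 39 stayed within the interval of the value reported and 10 moved outside it. The difference in log2 width, whose interval includes 0, changed sign to -0.0044 with neighbouring peaks merged, and no other difference changed sign. With whole chromosome length in place of sequenced length, the density was 6.53 peaks per Mb and the ratio to the other autosomes 1.26, since the unsequenced short arm then counts. With peaks at or above the median height only, these were 4.51 per Mb and 1.61. The median width was 1189.5 bp in labelled and 664 bp in unlabelled peaks. The labelled share was 47.3% at or above the median height, 62.7% at or above the median width and 53.1% for an apex within 1 kb of any start site. The share of coding genes was 50.7% with an apex within 1 kb. Of the motif shares, 8 of 16 alternatives moved. No paired analysis was possible because replicates have no values of their own in the data, and none could be left out.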
